A study of Irpex lacteus with 9 samples.

Results

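NewGene_1730, annotated as the iron multicopper oxidase fer1, and BC629DRAFT_498890, annotated as a major facilitator superfamily (MFS) siderochrome iron transporter, are 2 genes named for iron acquisition among the 19212 genes of *Irpex lacteus*, a white-rot fungus. They were picked by name for how their transcripts differed between nitrogen sources in these same libraries, so their levels and fold changes are given as a description with no test. The 4 further genes that carry KEGG orthology K19791, iron transport multicopper oxidase, are set beside them. RNA came from the fungus growing on wheat straw that had received distilled water, NH4Cl or NaNO3, with 3 libraries each. Per the labels, 1 μg of total RNA per sample went into poly-A selected Illumina libraries, and no dose, strain or time of growth is stated for any group. The labels do not say that the 3 libraries of a group came from separate cultures, so p-values measure only the spread between these samples. In RNA from a whole culture, a change in how many hyphae express a gene and a change in RNA per hypha cannot be told apart.

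Fungi take up iron by a reductive and a siderophore route. In baker's yeast, surface reductases turn ferric into ferrous iron, and a copper-loaded multicopper oxidase, bound to an iron permease, oxidises it again as it is carried in. In the siderophore route, small secreted chelators bind ferric iron, and transporters of the MFS carry the loaded chelator into the cell. Both routes are best known for rising under iron shortage, and iron is also needed for the heme of the peroxidases by which white-rot fungi attack lignin.

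Depth was 17896230 to 23194078 counts per library, and 14808 genes had enough counts for a test. A gene was called where edgeR's quasi-likelihood test gave a Benjamini-Hochberg adjusted p under 0.05 over all of these genes. NH4Cl replicate 3 and NaNO3 replicate 1 differed from the other libraries of their groups in several genes. The manganese transporter gene BC629DRAFT_861597 (pdt1) was at 803, 611 and 149 depth-scaled counts (CPM) in NH4Cl and at 21.4, 707 and 431 in NaNO3. Counts of called genes moved with many single libraries. Without NH4Cl replicate 3, the genes called between NH4Cl and NaNO3 went from 162 to 535, while those between NH4Cl and water went from 100 to 30. Without NaNO3 replicate 1, NH4Cl against water went to 365, NH4Cl against NaNO3 to 92 and NaNO3 against water from 749 to 486. Without NH4Cl replicate 1, NH4Cl against water went to 290. Without both NH4Cl replicate 3 and NaNO3 replicate 1, the counts were 765 and 1102 for NH4Cl and NaNO3 against water and 810 for NH4Cl against NaNO3.

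NewGene_1730 was low with water, a little above that with NaNO3 and highest with NH4Cl. Its orthology hit in the annotation, with an E-value of 1.98e-66, names the oxidase of the reductive route. Its domain is given only as multicopper oxidase, which does not name iron. In *Ustilago maydis*, fer1 is the multicopper oxidase that works with the permease fer2. Raw counts of NewGene_1730 were 31, 38 and 27 with water, 105, 131 and 116 with NH4Cl and 45, 46 and 58 with NaNO3. Scaled by library size and TMM factor, these were 1.37, 1.90 and 1.51 CPM with water, 5.97, 7.46 and 5.89 CPM with NH4Cl and 2.05, 2.59 and 2.89 CPM with NaNO3. The 3 groups did not overlap, and the order was water, NaNO3, NH4Cl from the lowest.

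Means of NewGene_1730 were 1.59 ± 0.274 CPM with water, 6.44 ± 0.884 CPM with NH4Cl and 2.51 ± 0.427 CPM with NaNO3 (SD, n = 3). The fitted level was 4.03 times that of water with NH4Cl, a log2 difference of 2.01 ± 0.22 (SE). For NaNO3 against water the log2 difference was 0.65 ± 0.22, and for NH4Cl against NaNO3 it was 1.36 ± 0.21. The authors' deposited table gives 2.05 for NH4Cl over water, 0.68 for NaNO3 over water and -1.37 for NaNO3 over NH4Cl. Leaving out each library in turn kept the NH4Cl against water difference between 1.89 and 2.16. NewGene_1730 had only 27 to 131 reads per library, which limits the precision of these differences.

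BC629DRAFT_498890 had another order of group means, with NH4Cl lowest and NaNO3 highest. Raw counts were 1176, 1148 and 1412 with water, 511, 751 and 1100 with NH4Cl and 2367, 2329 and 2048 with NaNO3. The scaled levels of BC629DRAFT_498890 were 52.1, 57.4 and 78.9 CPM with water, 29.0, 42.8 and 55.9 CPM with NH4Cl and 108, 131 and 102 CPM with NaNO3. Every NaNO3 library lay above every other library, while water and NH4Cl overlapped because NH4Cl replicate 3 reached the range of water. The means were 62.8 ± 14.2 CPM with water, 42.6 ± 13.4 CPM with NH4Cl and 114 ± 15.4 CPM with NaNO3 (SD, n = 3).

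For BC629DRAFT_498890 the fitted log2 difference was 0.86 ± 0.26 (SE) for NaNO3 against water, -0.56 ± 0.26 for NH4Cl against water and -1.42 ± 0.26 for NH4Cl against NaNO3. The authors' deposited table gives 0.88 for NaNO3 over water, -0.53 for NH4Cl over water and 1.416 for NaNO3 over NH4Cl. The NH4Cl against water difference moved most when 1 library was left out, from -0.32 without NH4Cl replicate 1 to -0.76 without NH4Cl replicate 3. The NH4Cl against NaNO3 difference stayed between -1.64 and -1.21 in those fits. Both contrasts with water share the water libraries, so they are not independent of each other. The genes thus lie in opposite orders between NH4Cl and NaNO3, the oxidase with more transcript in NH4Cl and the transporter with more in NaNO3.

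**Figure D1:**
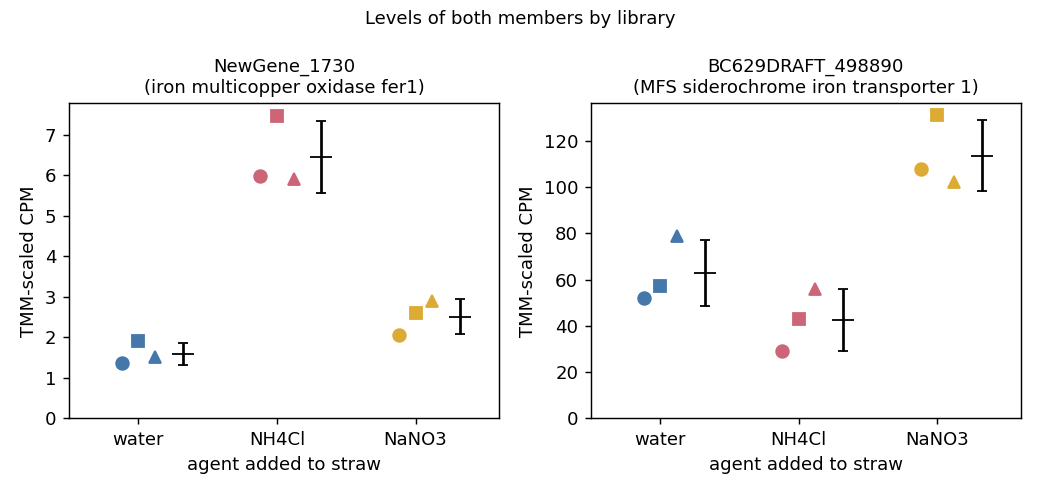
Depth-scaled counts, in CPM (y axis, from 0) of NewGene_1730 and BC629DRAFT_498890 in each library, by the agent added to the straw; circles, squares and triangles are replicates 1, 2 and 3, and the bar beside each group is the mean with its SD. NewGene_1730 is at 5.89 to 7.46 CPM in NH4Cl and below 3 CPM elsewhere, and BC629DRAFT_498890 is at 102 to 131 CPM in NaNO3 and below 80 CPM elsewhere.

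The annotation columns disagree on BC629DRAFT_498890. Its product name is MFS siderochrome iron transporter 1 and its domain is Major Facilitator Superfamily, while its orthology hit, with an E-value of 9.0e-89, is K01081, a 5'-nucleotidase. It does not carry K08197, the orthology of the siderophore-iron symporters, which 3 other genes do. The other genes with its product name do not carry K08197 either. Their hits are K01081 or K22834, a glucanosyltransferase. For BC629DRAFT_498890 and for these genes, the name siderophore transporter therefore rests on the product name alone.

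Of the 5 genes with K19791, 3 have a multicopper oxidase domain, namely NewGene_1730, BC629DRAFT_1532663 and NewGene_1731. The other 2, BC629DRAFT_581110 and NewGene_2234, have a WSC domain, a carbohydrate-binding cell wall module in fungi, and their orthology hits have E-values of only 1.0e-24 and 9.95e-09. BC629DRAFT_1532663 is also named fer1 and has the strongest K19791 hit, with an E-value of 1.7e-230. The gene length implied by the counts and FPKM (fragments per kilobase, scaled to depth) is 480 bases for NewGene_1730 and 2086 bases for BC629DRAFT_1532663. Whether both fer1 genes share reads was not tested.

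BC629DRAFT_1532663 had levels of 5.36, 4.40 and 5.81 CPM with water, 15.5, 21.2 and 12.7 CPM with NH4Cl and 3.37, 9.24 and 6.93 CPM with NaNO3. The NH4Cl libraries of this gene lay above all others, and water and NaNO3 overlapped. The log2 difference between NH4Cl and water was 1.66 ± 0.35 (SE), with an edgeR adjusted p of 0.0633. It missed the threshold, while DESeq2 gave an adjusted p of 0.000512 and limma on log2(FPKM + 1) 0.0493. The authors' deposited table calls BC629DRAFT_1532663 up, with a log2 fold change of 1.70. Without NaNO3 replicate 1 the edgeR adjusted p was 0.0323, and without that library and NH4Cl replicate 3 it was 0.0146. Of the 18 alternatives to the edgeR fit only 4 passed, and the adjusted p ran from 0.000512 to 0.232. Between NH4Cl and NaNO3 the log2 difference was 1.34 ± 0.35, with an edgeR adjusted p of 0.0883 and a DESeq2 adjusted p of 0.00949. Without both NH4Cl replicate 3 and NaNO3 replicate 1 it was 1.18, with an edgeR adjusted p of 0.0369. In this contrast 2 of the 18 alternatives passed, and the adjusted p ran from 0.00949 to 0.231. NaNO3 differed from water by 0.32 ± 0.35, with an edgeR adjusted p of 0.604.

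NewGene_1731 is named for fio1, the iron-transport multicopper oxidase of fission yeast. Its levels were 66.5, 53.0 and 60.8 CPM with water, 186, 131 and 70.3 CPM with NH4Cl and 38.7, 87.9 and 91.6 CPM with NaNO3. NH4Cl replicate 3 lay close to the water libraries and NaNO3 replicate 1 below them, and NH4Cl and NaNO3 overlapped. The log2 difference between NH4Cl and water was 1.10 ± 0.40 (SE), with an edgeR adjusted p of 0.185 and a DESeq2 adjusted p of 0.0644. Without both of those libraries it was 1.415, with an edgeR adjusted p of 0.0148. Of the 18 alternatives to the edgeR fit only 1 passed, and the adjusted p ran from 0.0148 to 0.440. Between NH4Cl and NaNO3 the log2 difference was 0.83 ± 0.40, with an edgeR adjusted p of 0.272.

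Per unit length, NewGene_1731 was the main transcript of the 3 oxidase genes. It held 61.7% to 83.8% of their summed FPKM across the 9 libraries, NewGene_1730 held 8.57% to 25.6% and BC629DRAFT_1532663 held 6.90% to 12.7%. The summed FPKM of the 3 genes was 26.3 at the lowest and 93.4 at the highest. In FPKM, NewGene_1730 was at 2.74 to 3.86 with water, 11.9 to 15.4 with NH4Cl and 4.92 to 5.86 with NaNO3. The FPKM of NewGene_1730 was 1.11 to 2.66 times that of BC629DRAFT_1532663. That ratio rests on the implied length of 480 bases, and whether NewGene_1730 is a whole gene or a fragment of one was not tested.

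BC629DRAFT_581110, with the WSC domain, was the most abundant K19791 gene by reads, at 682, 1131 and 946 CPM with water, 1139, 1739 and 3494 CPM with NH4Cl and 566, 420 and 626 CPM with NaNO3. In CPM, all NH4Cl libraries lay above all water libraries, and all NaNO3 libraries below them. In deposited FPKM both groups overlapped water. NaNO3 replicate 1 was at 173 FPKM and water replicate 1 at 168, and NH4Cl replicate 1 was at 279 and water replicate 2 at 289. Neither contrast passed with edgeR: the log2 difference was 1.21 ± 0.41 (SE) for NH4Cl against water (edgeR adjusted p = 0.169) and 1.98 ± 0.42 for NH4Cl against NaNO3 (edgeR adjusted p = 0.0625). With DESeq2 both passed, with adjusted p-values of 0.0366 and 0.000139. With NaNO3 replicate 1 and NH4Cl replicate 3 left out, the first was 0.66 (edgeR adjusted p = 0.213) and the second 1.46 (edgeR adjusted p = 0.0499). Of the 18 alternatives to the edgeR fit, 1 passed in the first contrast and 2 in the second. NewGene_2234 was at 1.08 to 2.34 CPM in all libraries, and its groups overlapped in every contrast.

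The permease that partners the oxidase in yeast has 1 clear counterpart here, BC629DRAFT_1642070, annotated as the high-affinity iron permease ftrA with K07243 and an FTR1 domain. Its levels were 21.7, 18.2 and 18.3 CPM with water, 45.7, 84.6 and 40.9 CPM with NH4Cl and 19.5, 35.03 and 31.2 CPM with NaNO3. The NH4Cl libraries lay above the other libraries, as for both fer1 genes. The log2 difference between NH4Cl and water was 1.56 ± 0.31 (SE), with an edgeR adjusted p of 0.0576. DESeq2 gave 0.00023, and edgeR gave 0.0391 without NaNO3 replicate 1, 0.0499 without NH4Cl replicate 1 and 0.0190 without both NH4Cl replicate 3 and NaNO3 replicate 1. Of the 18 alternatives to the edgeR fit only these 4 passed, and the adjusted p ran from 0.00023 to 0.218. Between NH4Cl and NaNO3 the log2 difference was 1.00 ± 0.31, with an edgeR adjusted p of 0.124 and a DESeq2 adjusted p of 0.0396. DESeq2 was the only 1 of the 18 alternatives to pass in this contrast. The authors' deposited table calls the permease up in NH4Cl over water, with a log2 fold change of 1.59. It does not call the permease between NH4Cl and NaNO3 (the authors' DESeq2 adjusted p = 0.109).

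**Figure D2:**
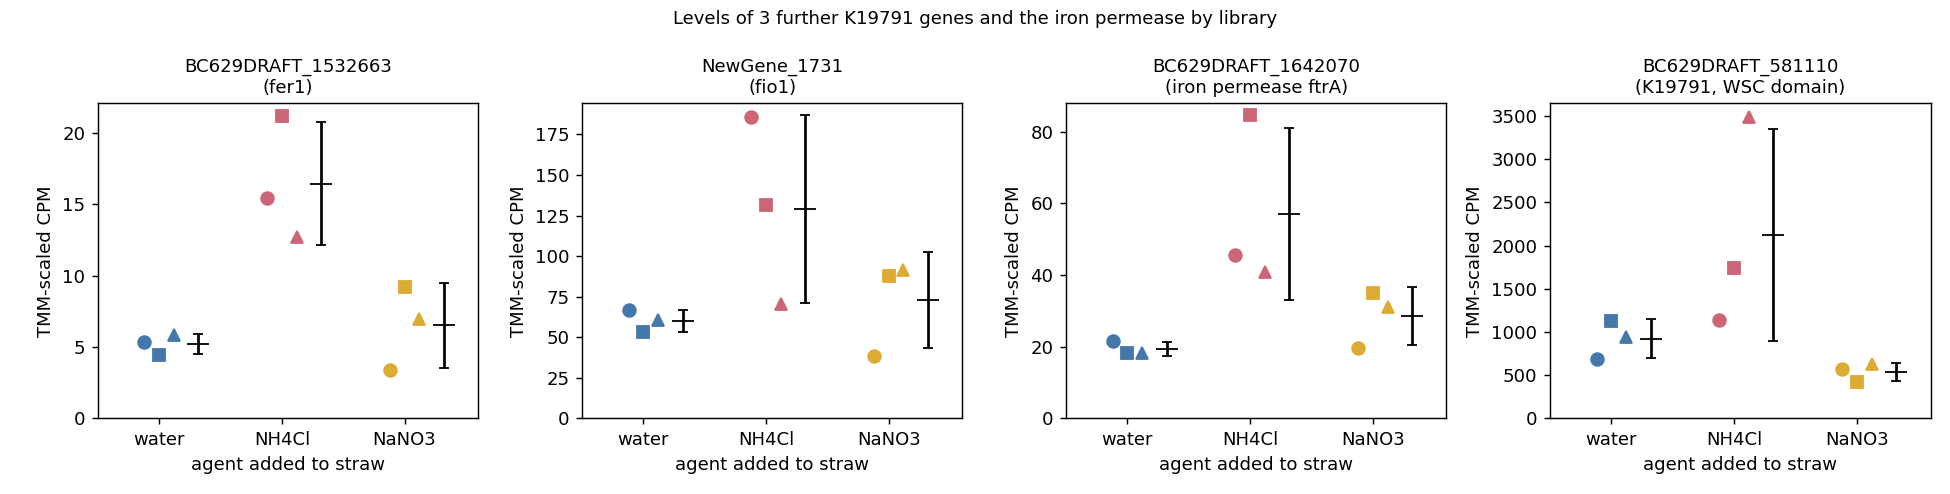
Depth-scaled counts, in CPM (y axes, each from 0 and on its own scale) of 2 K19791 oxidase genes, the iron permease gene and a K19791 gene with a WSC domain in each library, with symbols and bars as in the plot of both members. In each panel the 3 NH4Cl libraries lie above the water libraries, and for NewGene_1731 the triangle of NH4Cl, at 70.3 CPM, lies just above the water library at 66.5 CPM.

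Across the 9 libraries, the permease was among the genes whose levels were most like those of NewGene_1730. Likeness was measured as Pearson's r of log2(CPM + 0.5) over all 9 libraries, among 5420 genes with a named product and a mean of at least 1 CPM. These coefficients describe libraries that share scaling and group differences, and carry no test. Ranked by Spearman's rho instead, the set of 5 genes changed for both members. The 5 genes most like NewGene_1730 were the probable endonuclease gene LCL3 (BC629DRAFT_1593251, r = 0.970), a septin gene named Cell division control protein 3 (BC629DRAFT_1467932, r = 0.940), BC629DRAFT_1282539 (r = 0.930), the permease (r = 0.919) and the cytochrome P450 gene AKT7 (BC629DRAFT_1282169, r = 0.915). BC629DRAFT_1282539 is named nitrate reductase, while its orthology hit is sulfite oxidase. The second fer1 gene, BC629DRAFT_1532663, was in place 10 with an r of 0.902, and NewGene_1731 was in place 208 with an r of 0.717.

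The gene most like BC629DRAFT_498890 was another MFS transporter gene of uncharacterized substrate, BC629DRAFT_1592479 (r = 0.977), which carries the same K01081 hit. Its levels were 12.05, 17.7 and 19.7 CPM with water, 5.40, 9.11 and 14.1 CPM with NH4Cl and 26.6, 31.2 and 23.8 CPM with NaNO3, and the 9 libraries ranked in the same order for both genes. Next came the lysophospholipase gene NTE1 (BC629DRAFT_1492314, r = 0.972), the pre-mRNA splicing factor gene cwf19 (BC629DRAFT_1493686, r = 0.969), an alcohol dehydrogenase gene (BC629DRAFT_1438057, r = 0.959) and a J-domain protein gene (BC629DRAFT_1470366, r = 0.958). The alcohol dehydrogenase gene ranged from 7.33 CPM in NH4Cl to 72.9 CPM in NaNO3.

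The siderophore route was then read in the genes that share an annotation with BC629DRAFT_498890 or with its function. The product name MFS siderochrome iron transporter 1 is carried by 7 genes, none of them with K08197. Of the 6 besides BC629DRAFT_498890, edgeR called none in any contrast. The most abundant of them per length was BC629DRAFT_1621796, with 136, 134 and 80.4 CPM with water, 137, 110 and 77.7 CPM with NH4Cl and 61.5, 177 and 182 CPM with NaNO3. Its groups overlapped in every contrast, and NaNO3 replicate 1 had the lowest value of all 9 libraries. BC629DRAFT_1621796 held 32.0% to 74.8% of the summed FPKM of the 7 genes and BC629DRAFT_498890 held 14.4% to 50.8%, the lowest in NH4Cl replicate 1 and the highest in NaNO3 replicate 1. The remaining 5 genes held at most 8.31% each. BC629DRAFT_1583251 had its highest level, 12.02 CPM, in NaNO3 replicate 1 and 3.58 to 8.79 CPM in the other libraries.

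The 3 genes with K08197 are NewGene_1260 and NewGene_1261, named siderophore iron transporters, and BC629DRAFT_1598296, named after fer7, a siderophore transporter of *Ustilago maydis*. NewGene_1260 was at 8.46, 9.85 and 13.2 CPM with water, 9.15, 7.92 and 10.9 CPM with NH4Cl and 7.74, 5.52 and 6.03 CPM with NaNO3. In CPM, NewGene_1260 was thus lowest in the group where BC629DRAFT_498890 was highest, and its NaNO3 libraries lay below all others. In deposited FPKM the groups of NewGene_1260 overlapped. NaNO3 replicate 1 was at 11.2 FPKM, water replicate 1 at 9.84 and NH4Cl replicate 2 at 9.50. Its log2 difference between NaNO3 and water was -0.71 ± 0.22 (SE), with an edgeR adjusted p of 0.0975. NewGene_1261 had a log2 difference of -0.99 ± 0.30 in that contrast, with an edgeR adjusted p of 0.0944. For BC629DRAFT_1598296 it was -0.28 ± 0.28, with an edgeR adjusted p of 0.568. None of the 3 was called in any contrast by edgeR or DESeq2, and 2 of 3 had an unadjusted edgeR p under 0.05 below water in NaNO3, beside 14.0% of all tested genes. Likewise 2 of 3 had one above NaNO3 in NH4Cl, beside 10.9% of all tested genes, and both counts share the NaNO3 libraries. In both counts the genes are NewGene_1260 and NewGene_1261, with implied lengths of only 818 and 548 bases. Their FPKM ratio was 0.829 to 1.31 across the libraries. Whether they are parts of 1 gene was not tested, so each count may rest on 1 gene. The summed FPKM of the 3 genes was 12.5 to 37.2, against 87.3 to 151 for the 7 genes with the siderochrome name.

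**Figure D3:**
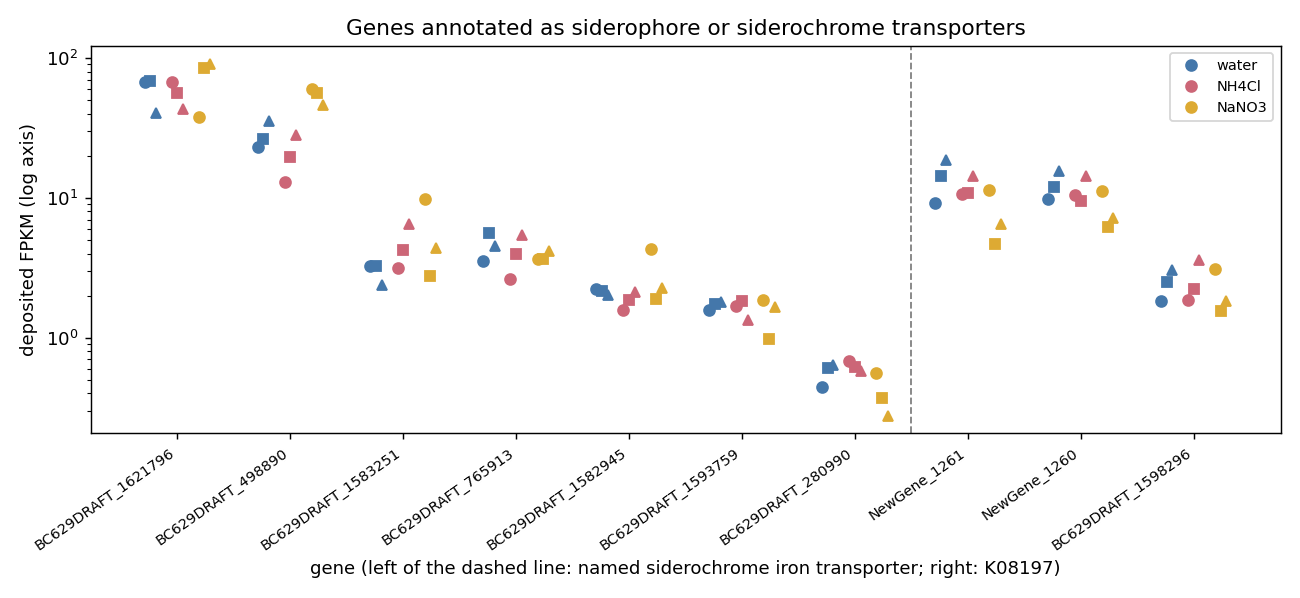
Deposited FPKM (y axis, log scale) of each gene named siderochrome iron transporter, left of the dashed line, and each gene with K08197, right of it; colours are the agents and circles, squares and triangles are replicates 1, 2 and 3. BC629DRAFT_498890 has its 3 NaNO3 libraries at 46.5 to 59.9 FPKM, above its other libraries, and in BC629DRAFT_1621796 the groups overlap.

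The rest of iron uptake and use was read from 12 lists of name patterns, with each gene put in the first list it matched. Multicopper oxidase genes with K19791 were thus held by the K19791 list. Under this rule 2 lists, other multicopper oxidases and siderophore synthesis, held no gene. The others held 84 genes besides both members, 79 of them tested. Some of these match a pattern but have another function by annotation, so the counts and medians describe mixed lists. With edgeR, 0 of 79 were called in each contrast, beside 0.675% of all tested genes for NH4Cl against water, 5.06% for NaNO3 against water and 1.09% for NH4Cl against NaNO3. At an unadjusted edgeR p under 0.05, 9 of 79 were higher and 4 lower for NH4Cl against water, where 7.77% of all tested genes were higher and 11.0% lower. For NaNO3 against water 7 were higher and 9 lower, beside 10.8% and 14.0% of all tested genes. For NH4Cl against NaNO3 11 were higher and 4 lower, beside 10.9% and 10.2%. DESeq2 called 8 of 79 higher and 2 lower for NH4Cl against water, where it called 3.52% of all tested genes higher and 4.15% lower. It called 6 higher and 4 lower for NaNO3 against water, beside 5.96% and 7.04%, and 5 higher and 2 lower for NH4Cl against NaNO3, beside 4.69% and 4.61%. Limma on log2(FPKM + 1) called 1, 1 and 0. The median log2 fold change of the lists together was 0.03, -0.10 and 0.11, and that of all tested genes -0.02, -0.03 and 0.02.

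Of the 4 K19791 genes besides NewGene_1730, 3 had NH4Cl libraries above all water libraries in CPM. Among them was BC629DRAFT_581110 with its WSC domain, whose NH4Cl and water libraries overlapped in deposited FPKM. The 4 genes mix oxidase and WSC domains, so their median is not that of oxidases alone. That median log2 fold change was 1.16 in NH4Cl against water and 1.08 in NH4Cl against NaNO3. Among all tested genes, 11.9% had NH4Cl above water without overlap and 16.1% below it, and 12.9% had NH4Cl above NaNO3 and 12.3% below it. In NaNO3 against water the median of the 4 genes was 0.07. The pattern for iron permeases matched 8 genes, of which only ftrA is an iron permease by its annotation. The others are polyadenylation factors named fip1, efflux pumps and zinc transporters, so that list's median says nothing of iron permeases.

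Ferric reductases supply ferrous iron to the oxidase and permease in yeast. Of 15 genes that match the name patterns for them, 6 had NH4Cl libraries above all water libraries and 0 had them below. All tested genes gave 11.9% and 16.1%. NH4Cl lay above NaNO3 for 7 and below it for 0, where all tested genes gave 12.9% and 12.3%. NaNO3 lay above water for 2 and below it for 3, beside 14.2% and 18.8% of all tested genes. Their median log2 fold change was 0.23 for NH4Cl against water and 0.32 for NH4Cl against NaNO3. Without NH4Cl replicate 3, edgeR called 1 of them, the metalloreductase gene BC629DRAFT_1435461 (AIM14), with a log2 difference of -0.92 for NaNO3 against water (adjusted p = 0.0462). Over all genes that fit called 700 in this contrast. The most abundant, BC629DRAFT_1579641 and BC629DRAFT_1578621, are named Ferric/cupric reductase transmembrane component 2, and their orthology hits are NADPH oxidases. Both are among the 6 genes with NH4Cl above water, so the counts and medians describe a mixed list and not ferric reductases alone. BC629DRAFT_1578621 was at 676, 672 and 783 CPM with water, 902, 1070 and 918 CPM with NH4Cl and 746, 730 and 759 CPM with NaNO3. Its log2 difference between NH4Cl and water was 0.44 ± 0.18 (SE), with an edgeR adjusted p of 0.227 and a DESeq2 adjusted p of 0.00781.

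The ferric reductase genes with the orthology of ferric-chelate reductase, BC629DRAFT_1561835 and BC629DRAFT_185142, were chosen after their values were seen. BC629DRAFT_1561835 was at 58.1, 55.1 and 144 CPM with water, 180, 96.4 and 88.4 CPM with NH4Cl and 30.5, 87.7 and 59.2 CPM with NaNO3. BC629DRAFT_185142 followed it from library to library, with an FPKM ratio of 1.64 to 2.02 between both genes. Water and NH4Cl overlapped for both, and NH4Cl lay above NaNO3. The log2 difference between NH4Cl and NaNO3 was 1.04 ± 0.50 for BC629DRAFT_1561835 (edgeR adjusted p = 0.274) and 1.16 ± 0.47 for BC629DRAFT_185142 (edgeR adjusted p = 0.204).

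Copper is the cofactor of the oxidase. The copper importer gene BC629DRAFT_1491496, of the Ctr family, was at 147, 185 and 443 CPM with water, 645, 499 and 319 CPM with NH4Cl and 95.1, 252 and 150 CPM with NaNO3. Its NH4Cl libraries lay above its NaNO3 libraries, with a log2 difference of 1.56 ± 0.51 (SE), an edgeR adjusted p of 0.136 and a DESeq2 adjusted p of 0.0291. BC629DRAFT_1463981, for the copper chaperone atx1, was at 40.8 to 54.0 CPM with water, 53.8 to 71.8 CPM with NH4Cl and 64.0 to 79.9 CPM with NaNO3. Its log2 difference between NaNO3 and water was 0.54 ± 0.17, with an edgeR adjusted p of 0.107 and a DESeq2 adjusted p of 0.0287.

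The only regulator matched was BC629DRAFT_1256198, hapX, in *Aspergillus* a bZIP factor that represses iron-using pathways and aids siderophore uptake in iron shortage. Its levels were 323, 326 and 472 CPM with water, 236, 139 and 70.2 CPM with NH4Cl and 76.3, 172 and 164 CPM with NaNO3. Both nitrogen groups lay below water without overlap and overlapped each other. The log2 difference was -1.33 ± 0.46 (SE) for NH4Cl against water, with an edgeR adjusted p of 0.169 and a DESeq2 adjusted p of 0.0548. For NaNO3 against water it was -1.44 ± 0.46, with an edgeR adjusted p of 0.103 and a DESeq2 adjusted p of 0.0242. Of the 18 alternatives to the edgeR fit, 0 passed in the first contrast and 1 in the second. BC629DRAFT_1284964 is named after Suppressor of ferric uptake 1, a GATA factor that represses iron uptake in *Candida albicans*, and was chosen after its values were seen. It was at 150, 137 and 141 CPM with water, 358, 362 and 143 CPM with NH4Cl and 166, 285 and 292 CPM with NaNO3. NH4Cl replicate 3 and NaNO3 replicate 1 were near water, and no contrast passed (edgeR adjusted p = 0.179 for NH4Cl against water).

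No gene of iron storage, iron-sulfur clusters or heme synthesis was called by edgeR with all 9 libraries. BC629DRAFT_1620291, for CCC1, the vacuolar iron importer in yeast, was at 61.4 to 83.5 CPM with water, 58.6 to 72.0 CPM with NH4Cl and 81.0 to 95.7 CPM with NaNO3. Its NH4Cl libraries lay below its NaNO3 libraries, as for BC629DRAFT_498890, with a log2 difference of -0.47 ± 0.16 (SE) and an edgeR adjusted p of 0.155. The 21 tested genes of iron-sulfur clusters had medians of -0.11 for NH4Cl and -0.05 for NaNO3, each against water, and 0.05 for NH4Cl against NaNO3, and the 14 tested genes of heme synthesis had medians of 0.30, 0.14 and 0.04 in the same order. NewGene_1618, for the mitochondrial cluster scaffold, had a mean of 435 CPM with NaNO3 and 315 CPM with water, a log2 difference of 0.46 ± 0.18 with an edgeR adjusted p of 0.151 and a DESeq2 adjusted p of 0.0143. Without NH4Cl replicate 3 and NaNO3 replicate 1, edgeR called 5 genes of these lists, all with higher levels than in water. Over all genes that fit called 287 higher and 478 lower for NH4Cl and 394 higher and 708 lower for NaNO3, each against water. For NH4Cl the list genes were BC629DRAFT_284433, for the cluster assembly protein DRE2 (log2 difference 1.88, adjusted p = 0.0288), and BC629DRAFT_1282552, for monothiol glutaredoxin-4 (0.82, adjusted p = 0.0356). For NaNO3 they were NewGene_1618 (0.61, adjusted p = 0.0329), BC629DRAFT_1532148, also named for the scaffold (0.63, adjusted p = 0.0302), and the porphobilinogen deaminase gene BC629DRAFT_1590045 of heme synthesis (1.23, adjusted p = 0.036).

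**Figure D4:**
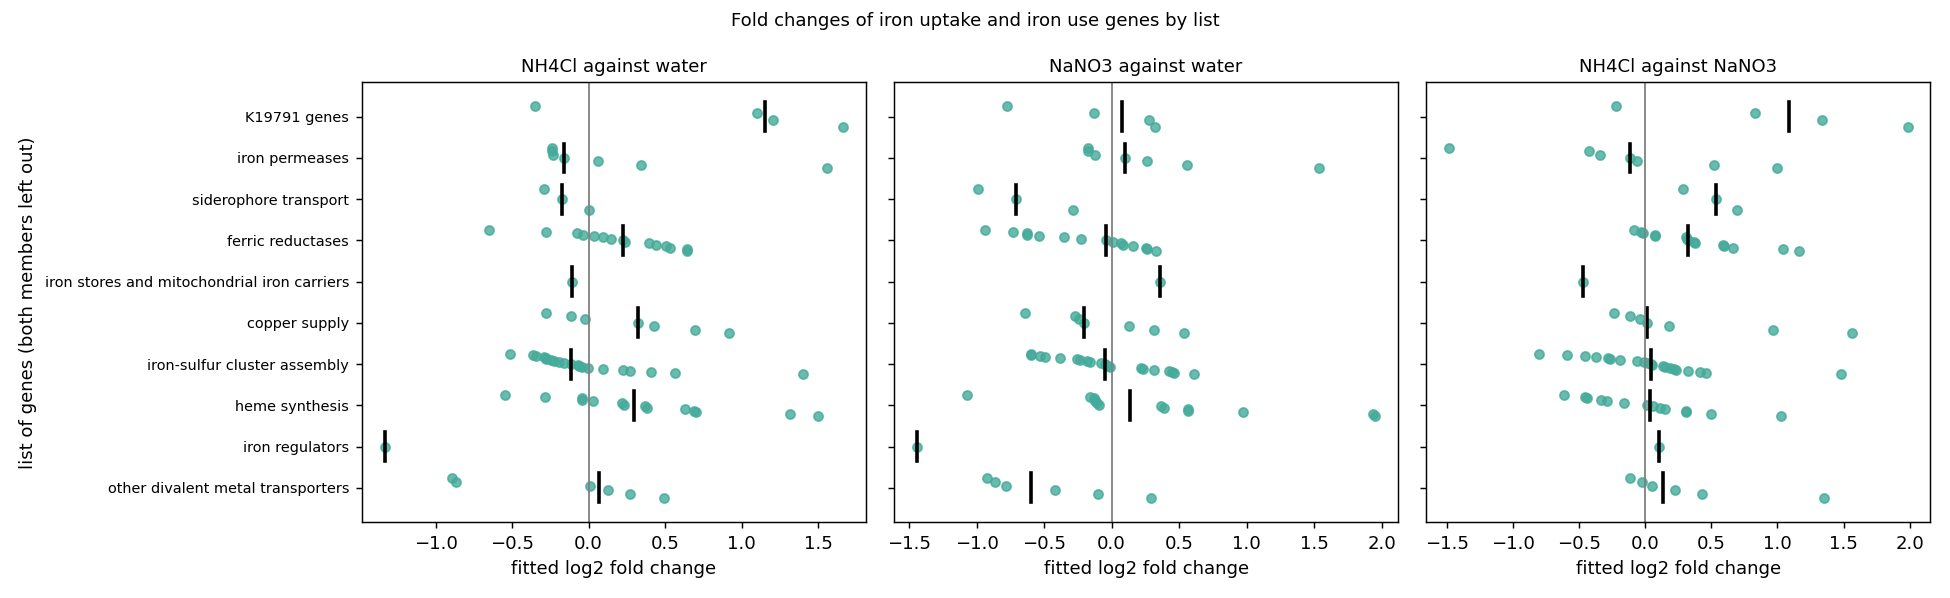
Fitted log2 fold change (x axes) by list of name patterns (y axis), for the 3 contrasts. Each point is 1 of the 79 tested genes that matched a pattern, not all of them iron genes by annotation. Black bars are list medians and both members are left out. The K19791 genes, which mix oxidase and WSC domains, have medians of 1.16 and 1.08 in both contrasts with NH4Cl in the first place. The lists of ferric reductases, iron-sulfur clusters and heme synthesis have medians between -0.11 and 0.32.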

How the data were processed

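The authors deposited 1 table of unscaled counts, whole numbers for every gene in each library, and of FPKM values. Per the file headers, the authors' own DESeq2 comparisons (log2 fold changes, adjusted p-values) stand in further columns and are quoted only where named. HISAT2 and StringTie were used, per the submitters' processing notes; versions, build, annotation and strand setting are not given in the sources used here. The protocol in the labels describes extraction from plant and from animal material. The organism field names *Irpex lacteus* and the design text *Tricholoma album*; the former was followed. No row is named for wheat photosynthesis, and 0 pairs of libraries had identical counts.

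Counts were tested in R 4.3.3 with edgeR 4.0.16 (filterByExpr, TMM scaling, glmQLFit, glmQLFTest), 9 libraries in 1 fit, no replicate block, and 3 contrasts. The SE is the log2 fold change over the square root of F. Levels are TMM-scaled CPM; levels of different genes are compared in the deposited FPKM. Alternatives used DESeq2 1.42.0, limma 3.58.1 on log2(FPKM + 1) or log2(FPKM + 0.1), other scaling or filters, and libraries left out. The steps were tested on simulated data. The members, lists and alternatives were chosen with earlier results of these data known. Lists are word patterns matched to product, domain and orthology columns. Named are both members, other K19791 genes, permease and siderophore transport genes, the 2 most abundant genes of each other list, the 5 genes most like each member, and genes with a member's product name; of these the text prints a part, and further genes called only by an alternative.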

Additional observations from a re-analysis of the deposited data

How the results depend on the processing

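The log2 differences of NewGene_1730 and BC629DRAFT_498890 kept their direction under every alternative run, and no difference of a named gene that was recomputed reversed. That of NewGene_1730 for NH4Cl against water was 1.79 with limma on log2(FPKM + 1), with and without a filter on low values. Leaving out 1 library at a time gave 1.89 to 2.16, 0.55 to 0.80 and 1.24 to 1.47 for NewGene_1730, in the order NH4Cl and then NaNO3 against water and last NH4Cl against NaNO3, and -0.76 to -0.32, 0.74 to 1.05 and -1.64 to -1.21 for BC629DRAFT_498890. Counts of called genes depended on the setting, and the cause was not tested. In that order, edgeR called 100, 749 and 162 genes. DESeq2 called 1136, 1925 and 1376, a fit of only the groups compared 10, 492 and 12, limma on log2(FPKM + 0.1) 12, 303 and 75, and limma on log2(FPKM + 1) without a filter 17, 367 and 93. Limma on log2(FPKM + 1) called 398 and 103 in the last 2 contrasts, and edgeR without a count filter 48 in the first. Leaving out 1 library gave 0 to 365, 0 to 700 and 0 to 535. The first contrast had 0 without any of water replicates 1 and 2, NH4Cl replicate 2 and NaNO3 replicates 2 and 3, the second 0 without water replicate 2 or 3 and 1 without NaNO3 replicate 2 or 3, and the last 0 without NH4Cl replicate 2. Without both NH4Cl replicate 3 and NaNO3 replicate 1 there were 765, 1102 and 810. Of the iron lists, where edgeR called 0, DESeq2 called 10, 10 and 7, limma on log2(FPKM + 1) called 1 in each contrast with water, and 1 in NaNO3 against water without a filter. Leaving out 1 library gave 0 to 2, 0 to 1 and 0, and leaving out both libraries 5, 3 and 2. Adding genes with siderochrome or ferric uptake names, chosen after seeing the data, left the edgeR calls at 0. The set of genes most like each member moved for both members when Spearman's rho replaced Pearson's r.

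With the replicate number as a block, edgeR called 0, 0 and 3 genes. Whether libraries with the same number share a batch is not known here. Their deviations from the group means correlated between -0.36 and 0.38 over genes. Deviations within a group sum to 0 for each gene, so these values cannot settle it. At 27 to 131 reads for NewGene_1730, depth limits its precision.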
